A study of Danio rerio with 6 samples.

Results

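The genes described here encode the main structural proteins of the extracellular matrix and the integrins through which cells hold on to it. They are every gene whose zebrafish symbol begins with that of a collagen chain, a laminin alpha, beta or gamma chain, fibronectin 1, a fibrillin or an integrin alpha or beta subunit, together with the hyaluronan synthase genes has1, has2 and has3. Genes of the lysosomal lamtor complex, whose symbols look alike, were left out. By this rule 114 of the 32266 genes in the files were members, namely 56 collagens, 14 laminins, 2 fibronectins, 2 fibrillins, 3 hyaluronan synthases, 34 integrin subunits and 3 genes that share the integrin prefix without encoding a subunit (itgb1bp1, itgb3bp and itgbl1). Some identifiers carry only a human-style symbol in upper case, and where several share a symbol the Ensembl identifier is given beside it.

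RNA was sequenced from whole zebrafish embryos of the Tubingen (TU) strain at 50% epiboly, a stage of gastrulation, with 25 embryos pooled in each library. The 3 MZsmad4a libraries came from maternal-zygotic mutants, bred from homozygous mothers and fathers, in which both the egg and the embryo lack intact smad4a. They carry the smad4aΔ14 allele, a CRISPR/Cas9 deletion that shifts the reading frame, and smad4a encodes the SMAD that is shared by the BMP and Nodal branches of TGF-β signalling. The 3 WT libraries came from embryos of the same stage without the mutation, and the question was how the loss of smad4a changed the transcriptome. MZsmad4a is a constitutive mutant in all cells from fertilisation, of a single allele, and its paralogue smad4b was left in place.

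The extracellular matrix is the network of secreted proteins and sugars around cells. Collagens form fibrils, sheets and anchoring filaments, laminins assemble from an alpha, a beta and a gamma chain into the first layer of a basement membrane, fibronectin forms fibrils that migrating cells crawl on, and hyaluronan is a long sugar polymer that is spun out of the cell by its synthase and holds water between cells. Integrins are pairs of an alpha and a beta subunit that bind these ligands outside the cell and the actin cytoskeleton inside it. In the zebrafish gastrula, fibronectin and laminin line the boundaries between the germ layers, and has2 is required for the cell movements that narrow and lengthen the body axis. Outside that stage, fibronectin is required for the migration of heart precursors.

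The libraries held 18138714, 18567312 and 19900859 expected counts in MZsmad4a and 9807865, 20833491 and 17874576 in WT, so WT replicate 1 was the shallowest. The targeted gene lay on the side of its label in every library, with 13.1, 15.3 and 14.6 CPM (counts relative to library size, scaled by edgeR's TMM factors) of smad4a in MZsmad4a, against 54.7, 62.3 and 60.8 CPM in WT. Expected counts were compared with edgeR's quasi-likelihood test, and a gene was called at a Benjamini-Hochberg adjusted p under 0.01 over the 15720 genes tested. TPM corrects both for depth and for transcript length and is used below for levels and for comparing genes with each other, and CPM is used beside the tests. The median gene had a log2 ratio of -0.11 in TPM and -0.01 on the TMM scale, and a single transcript, ENSDARG00000080337, took 9.65, 11.1 and 12.9% of all TPM in MZsmad4a, against 4.63, 9.29 and 9.06% in WT. Ratios of TPM below are to be read against that shift.

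A few matrix and integrin genes carried nearly all of the transcripts. Of the 114 genes, 2 had a mean of 100 TPM or more over the 6 libraries, 9 lay between 10 and 100 TPM, 26 between 1 and 10 TPM and 77 under 1 TPM. The 11 genes at 10 TPM or more held between 89.5 and 90.9% of the summed TPM in MZsmad4a libraries and between 92.3 and 92.5% in WT libraries. They were ITGB1 (ENSDARG00000104484), lamc1, LAMB1 (ENSDARG00000101209), itga5, lama1, itgb5, has2, itgav, COL12A1, a second ITGB1 (ENSDARG00000071863) and fn1a. At the other end, has1, itga10 and lama3 had no count in any library, and 23 genes, these included, had 3 counts or fewer in every library, a level taken as the least that these libraries can show (between 0.143 and 0.283 CPM).

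**Figure D1:**
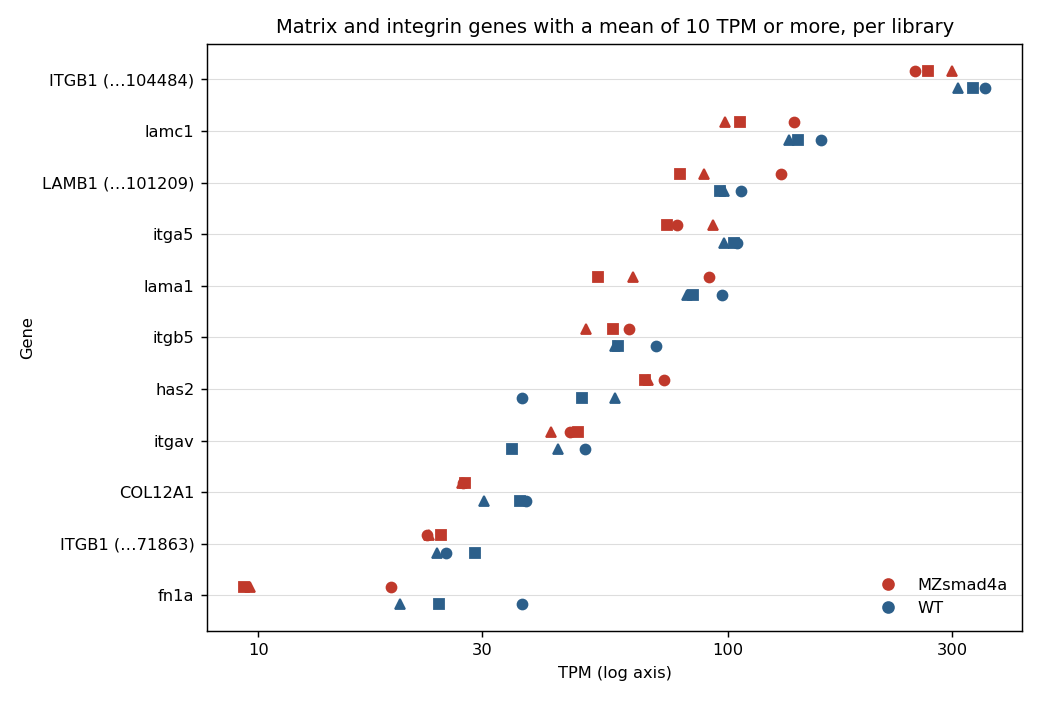
TPM on a log axis of the 11 matrix and integrin genes with a mean of 10 TPM or more, with 1 marker for each MZsmad4a library (red, upper) and each WT library (blue, lower); circles are replicate 1, squares replicate 2 and triangles replicate 3. The has2 values of MZsmad4a lie to the right of WT, between 66.7 and 73.2 TPM against 36.4 to 57.4 TPM, and those of fn1a lie to the left, between 9.33 and 19.2 TPM against 20.0 to 36.5 TPM.

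No member was called at an adjusted p under 0.01 in either direction. Of the 64 members with enough counts to be tested, 0 were lower and 0 were higher in MZsmad4a, where 0.49% and 0.223% of all tested genes were called lower and higher, or 0.712% in all. The other 50 members did not pass the filter on low counts, and 2 of the 64, col4a1 and col4a4, passed it only through the libraries of the genotype in which they were higher. At an unadjusted p under 0.05, 22 of the 64 passed, 7 lower and 15 higher in MZsmad4a, against 17.5% of all tested genes (8.81% lower and 8.68% higher). Without col4a1 and col4a4 these were 6 lower and 14 higher of 62. The CPM values of the genotypes did not overlap for 19 members (29.7%), 6 with MZsmad4a below WT and 13 above, against 23.6% of all genes (11.9% below and 11.7% above). The 19 include col4a1 and col4a4, whose lack of overlap was fixed by the filter. The median log2 fold change of the tested members was 0.10, against -0.01 over all genes, and its sign depended on the fit: it was -0.04 without MZsmad4a replicate 1, -0.06 with at least 10 counts in every library, -0.14 without a filter on low counts and -0.16 with DESeq2.

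At an adjusted p under 0.05 there were 2 members, where 2.93% of all tested genes passed (1.67% lower and 1.26% higher). They were itga4, lower in MZsmad4a, and col4a1, higher. Since col4a1 passed the filter on low counts only through the mutant libraries, where it was high, 1 member (itga4) passed among the 62 that reached the filter minimum in libraries of both genotypes. DESeq2, run as an alternative, called 6 members at an adjusted p under 0.01, of which itga4, col8a1a, col4a4 and fn1b were lower and col17a1a and col4a1 were higher, where it called 1.94% of its 17716 genes with an adjusted p lower and 1.78% higher, or 3.71% in all. In counts simulated for the 15720 tested genes at these depths, edgeR recovered 27 of 100 genes with a log2 fold change of 1 and 88 of 100 with a log2 fold change of 2. Changes of 2-fold or less would thus often be missed by this test. The changed genes were drawn only from genes above a set mean count, which many of the tested members do not reach, and recovery at low counts was not measured.

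**Figure D2:**
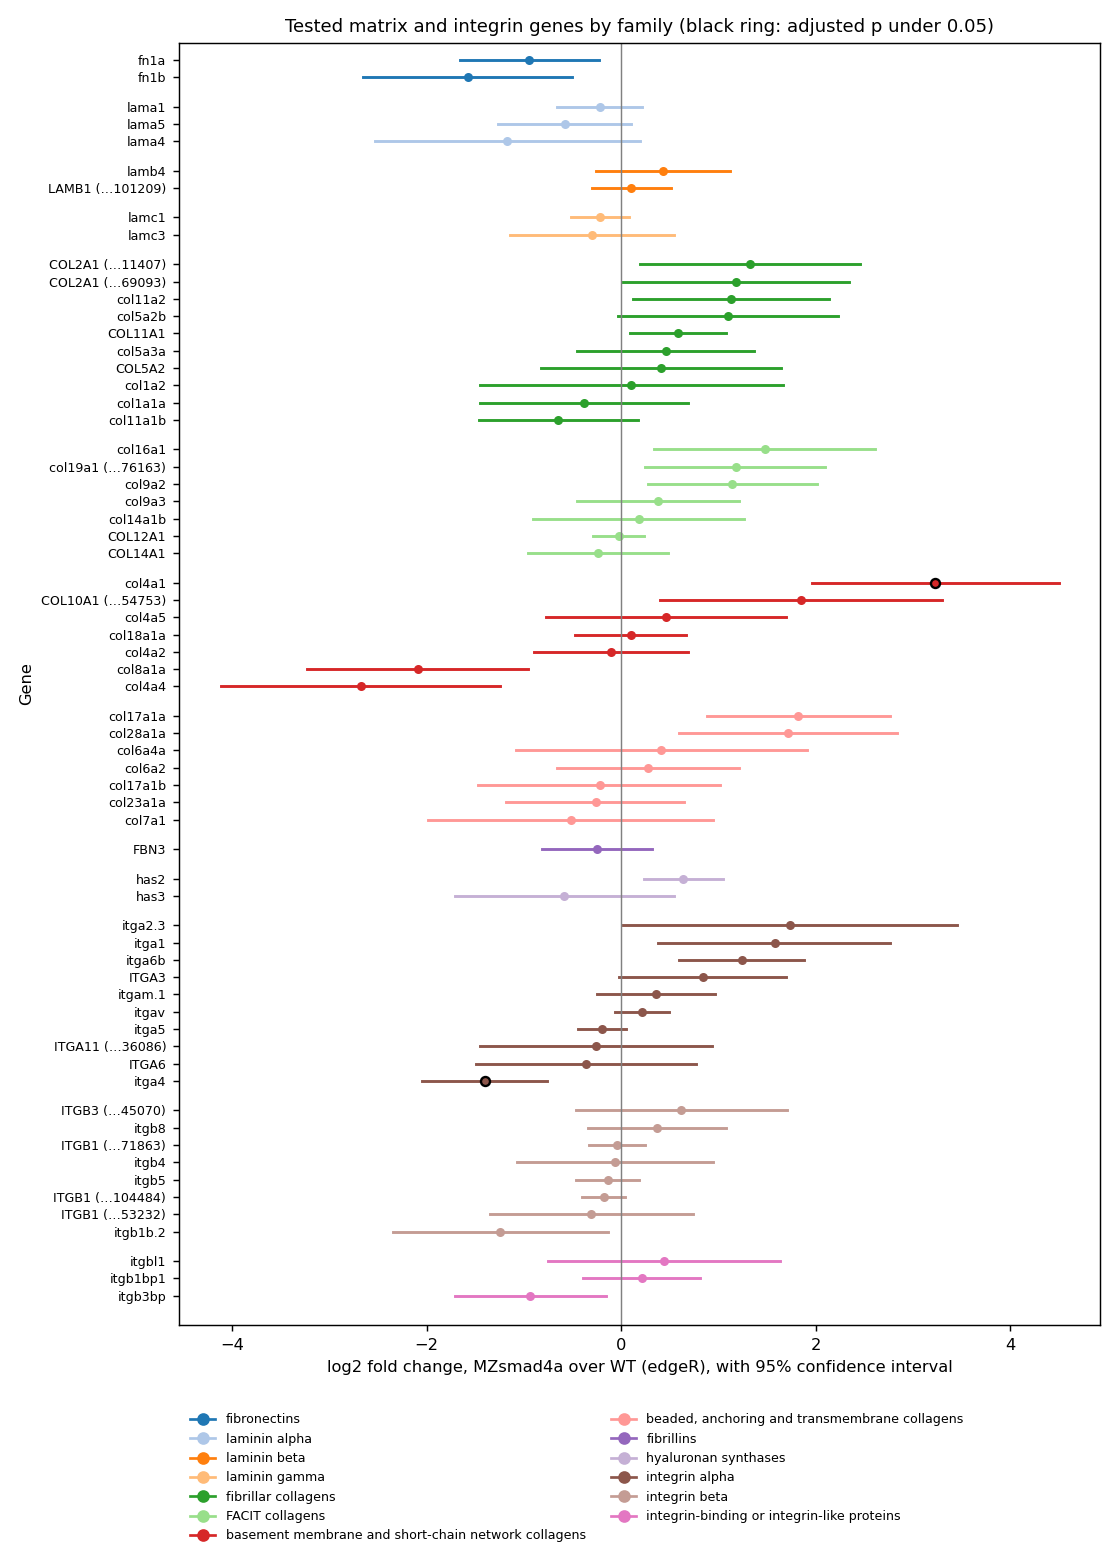
log2 fold change (MZsmad4a over WT, edgeR) of the 64 tested matrix and integrin genes with its 95% confidence interval, grouped and coloured by family; a black ring marks an adjusted p under 0.05. The rings are on col4a1 at 3.23 and itga4 at -1.40, and the points for lamc1, itga5 and the leading ITGB1 lie close to 0 with short intervals.

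Both fibronectin genes were at lower levels in MZsmad4a, short of the threshold. fn1a (ENSDARG00000019815), the fibronectin gene whose mutation disrupts formation of the heart tube in zebrafish, had 19.2, 9.33 and 9.63 TPM in the MZsmad4a libraries, against 36.5, 24.2 and 20.0 TPM in WT. In TPM the genotypes did not overlap, but in CPM they did, since MZsmad4a replicate 1 had 102.2 CPM and WT replicate 3 had 99.1 CPM. The log2 fold change was -0.95 (standard error 0.31, edgeR adjusted p = 0.165). Without MZsmad4a replicate 1 it was -1.38 (edgeR adjusted p = 0.0278), and leaving out any of the other libraries left it between -1.11 and -0.71.

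Its paralogue fn1b (ENSDARG00000006526) was less abundant, with 1.90, 1.85 and 0.53 TPM in MZsmad4a, against 6.09, 3.04 and 2.44 TPM in WT. Every MZsmad4a library lay below every WT library in CPM as well. Replicate 1 was the highest of its genotype for both paralogues, in MZsmad4a as in WT. With the replicate number as a block, edgeR gave adjusted p = 0.0373 for fn1a and 0.0489 for fn1b. The log2 fold change of fn1b was -1.58 (standard error 0.47, edgeR adjusted p = 0.129), and DESeq2 gave -1.58 with an adjusted p of 0.00835. fn1a outweighed fn1b in every library, by a ratio of TPM between 5.04 and 18.2 in MZsmad4a and between 5.99 and 8.20 in WT. Summed over both genes the level was 14.1 ± 6.02 TPM in MZsmad4a and 30.8 ± 10.5 TPM in WT (SD, n = 3 each), with 21.1, 11.2 and 10.2 TPM against 42.5, 27.2 and 22.5 TPM, and the log2 ratio was -1.12.

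The embryos were sequenced whole, so that fewer cells of a type and less RNA in each cell cannot be told apart. Markers of the margin and mesoderm had a summed level of 211.1 to 287.2 TPM in MZsmad4a, against 595.3 to 636.6 TPM in WT, and 2 of 5 tested markers (tbx16l and eve1) were called lower by edgeR. The summed level of dorsal and axial mesoderm markers was 487.0 to 656.3 TPM in MZsmad4a and 822.2 to 902.5 TPM in WT with 0 of 8 called. Of these, tbxta, the most abundant, was lower without overlap (log2 fold change -0.57), as were noto, tbxtb and shha. Of all tested genes, 11.9% lay below WT without overlap. For tbxta and noto the edgeR adjusted p values were 0.0646 and 0.102, and those of DESeq2 were 0.0152 and 0.037. The study reports tbxta transcript levels as equivalent by RNA-seq and qPCR, and expression of noto as unaffected. The genotypes overlapped for chrd, gsc, foxa2 and SHH, with log2 fold changes of -0.21, -0.39, -0.20 and 0.23. The summed level of the 2 endoderm markers was 179.5 to 213.5 TPM against 275.5 to 339.5 TPM with 0 of 2 called. Most of that sum came from sox32, which was lower without overlap (log2 fold change -0.44, edgeR adjusted p = 0.108). The rarer sox17 had 21, 68 and 54 counts in MZsmad4a, against 137, 218 and 228 in WT. It was lower without overlap (log2 fold change -2.19, edgeR adjusted p = 0.0204, DESeq2 adjusted p = 2.50e-07). For ventral ectoderm markers the summed level was 196.4 to 212.9 TPM against 276.3 to 355.0 TPM, with 2 of 6 called lower (gata2a and foxi1). Of the other ventral ectoderm markers, tp63 was lower without overlap (log2 fold change -2.74, edgeR adjusted p = 0.0516). The most abundant, tfap2a and gata3, overlapped with log2 fold changes of -0.06 and 0.06, as did DLX3 with -0.31. The enveloping layer, the outer epithelium of the embryo, gave 8960.7 to 10581.1 TPM in MZsmad4a and 8977.0 to 10803.9 TPM in WT with 0 of 12 called. Its tested markers overlapped between the genotypes, apart from cyt1. cyt1 was higher in MZsmad4a without overlap (log2 fold change 0.80, edgeR adjusted p = 0.0836, DESeq2 adjusted p = 0.00626). The yolk syncytial layer gave 676.3 to 874.6 TPM in MZsmad4a and 632.5 to 800.9 TPM in WT with 0 of 7 called. Rare markers of that layer count little in its sum. Of these, mxtx2 was lower without overlap (log2 fold change -2.88, edgeR adjusted p = 0.0286). It had 2, 6 and 9 counts in MZsmad4a, and no MZsmad4a library reached the filter minimum of 0.545 CPM, which applies before TMM scaling. The gene thus entered the test only through WT, so that its direction and lack of overlap were fixed by the filter. APOB was higher with overlap (log2 fold change 2.08, edgeR adjusted p = 0.276). The part of these marker differences in the levels of the matrix genes was not tested.

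Laminin was represented by a single set of chains. lama1, LAMB1 (ENSDARG00000101209) and lamc1, whose products are the alpha, beta and gamma chains of the laminin of early embryos, together made up 98.1 to 98.8% of the summed laminin TPM in MZsmad4a and 97.8 to 98.4% in WT. In all 6 libraries lamc1 was the most abundant of them, LAMB1 the second and lama1 the third. None of the 7 tested laminins had an unadjusted p under 0.05, and all 7 overlapped between the genotypes in CPM.

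The gamma chain gene lamc1 (ENSDARG00000036279) had 138.1, 106.2 and 98.4 TPM in MZsmad4a, against 157.6, 140.8 and 134.9 TPM in WT. Its log2 fold change was -0.22 with a 95% confidence interval of -0.52 to 0.08 (edgeR adjusted p = 0.444), an interval that does not reach a 2-fold difference in either direction. The alpha chain gene lama1 (ENSDARG00000102277) had 91.2, 52.8 and 62.8 TPM in MZsmad4a and 96.9, 84.2 and 81.9 TPM in WT, with a log2 fold change of -0.22 (95% confidence interval -0.66 to 0.21). The beta chain gene LAMB1 had 129.5, 79.0 and 88.7 TPM in MZsmad4a and 106.4, 96.0 and 98.1 TPM in WT, with a log2 fold change of 0.10 (95% confidence interval -0.30 to 0.51).

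For each of the 3 chains MZsmad4a replicate 1 was the highest of the mutant libraries, and WT replicate 1 was the highest of the WT libraries in TPM. Without MZsmad4a replicate 1 the log2 fold changes were -0.39 for lamc1, -0.49 for lama1 and -0.14 for LAMB1, and none passed the threshold (edgeR adjusted p = 0.0736, 0.0856 and 0.513). The direction of LAMB1 therefore depended on that library, and it was also negative, at -0.01, when libraries were scaled by their size alone. The ratio of LAMB1 to lamc1 TPM was 0.938, 0.743 and 0.902 in MZsmad4a, against 0.675, 0.682 and 0.727 in WT, so that it was higher in every MZsmad4a library, while the ratio of lama1 to lamc1 was 0.660, 0.497 and 0.639 against 0.615, 0.598 and 0.607 and overlapped.

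The remaining laminin chains were rare. lama4, a chain of vessel-associated basement membranes in mammals, had 0.71, 2.08 and 0.53 TPM in MZsmad4a and 2.82, 4.02 and 1.10 TPM in WT, with a log2 fold change of -1.17 (standard error 0.59, edgeR adjusted p = 0.361). lama5 averaged 0.370 ± 0.0700 TPM in MZsmad4a and 0.590 ± 0.155 TPM in WT (SD, n = 3 each), lamb4 averaged 1.51 ± 0.309 TPM and 1.22 ± 0.406 TPM, and lamc3 averaged 0.467 ± 0.140 TPM and 0.637 ± 0.191 TPM. lama2, lamb2, lamb2l, lamb3 and the second LAMB1 gene (ENSDARG00000045524) were among the laminins too low to be tested. The summed laminin level was 363.0, 242.6 and 252.9 TPM in MZsmad4a and 367.5, 328.2 and 320.0 TPM in WT, which overlapped.

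**Figure D3:**
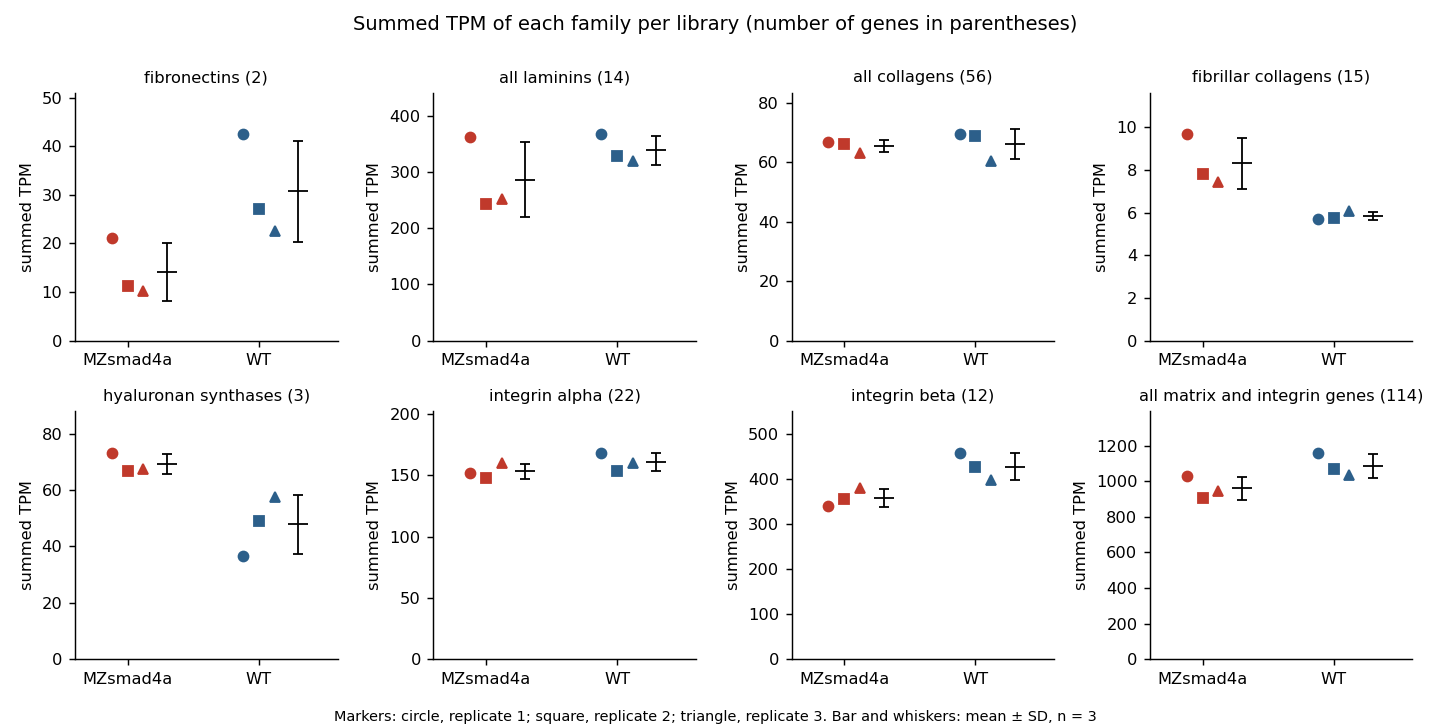
Summed TPM of 8 families in the 3 MZsmad4a libraries (red, left) and the 3 WT libraries (blue, right) of each panel, with the mean and SD (n = 3) in black and the number of genes in parentheses. Fibronectins and integrin beta subunits lie below WT without overlap (log2 ratios -1.12 and -0.25), fibrillar collagens and hyaluronan synthases lie above it (0.51 and 0.54), and laminins and all collagens overlap.

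The hyaluronan synthases came down to has2, which held at least 99.1% of their summed TPM in every library. has2 (ENSDARG00000036987) had 73.2, 66.7 and 67.5 TPM in MZsmad4a, against 36.4, 48.8 and 57.4 TPM in WT. All 3 MZsmad4a libraries were above all 3 WT libraries, and the mutant libraries varied less among themselves. In CPM has2 averaged 187.6 ± 12.1 in MZsmad4a and 119.7 ± 30.4 in WT (SD, n = 3 each), with a log2 fold change of 0.64 (standard error 0.18, 95% confidence interval 0.24 to 1.05, edgeR adjusted p = 0.106). WT replicate 1, the shallowest library, had the lowest value, and without it the log2 fold change was 0.47 (edgeR adjusted p = 0.10). has3 averaged 0.157 ± 0.00577 TPM in MZsmad4a and 0.313 ± 0.105 TPM in WT, and rested on 6 to 35 counts per library.

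The collagens were 56 genes at low levels, apart from COL12A1. Of the 31 tested, 21 had a positive and 10 a negative log2 fold change, with a median of 0.41, where 7705 of all 15720 tested genes were positive. At an unadjusted p under 0.05 there were 11 higher and 2 lower in MZsmad4a (41.9% of the 31, against 17.5% of all tested genes). In CPM the genotypes did not overlap for 10 of them (32.3%, against 23.6% of all genes), 8 with MZsmad4a above WT and 2 below. col4a1 is among those higher and col4a4 among those lower in both counts. Each passed the filter on low counts only through the genotype in which it was higher, so that its direction and lack of overlap were fixed by the filter. The summed collagen TPM did not follow, at 67.0, 66.3 and 63.1 TPM in MZsmad4a, against 69.5, 68.9 and 60.4 TPM in WT.

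The difference between the count and the sum lay in COL12A1 (ENSDARG00000078322), which encodes a collagen that sits on the surface of fibrils and held 40.7, 41.5 and 42.9% of the collagen TPM in MZsmad4a, against 53.5, 52.2 and 50.0% in WT. It had 27.3, 27.5 and 27.1 TPM in MZsmad4a and 37.2, 36.0 and 30.2 TPM in WT, without overlap. Its CPM values did overlap, at 45.5, 39.7 and 41.2 in MZsmad4a and 43.0, 44.8 and 40.8 in WT, with a log2 fold change of -0.02 (95% confidence interval -0.29 to 0.24, edgeR adjusted p = 0.944). TPM divides by the transcript length that RSEM estimated for the library, and this length was 2896, 2611 and 2651 bases in MZsmad4a, against 2339, 2313 and 2549 bases in WT. The lower TPM of COL12A1 thus came with a longer estimated transcript and not with fewer reads relative to library size. The median gene was also lower in TPM, with a log2 ratio of -0.11. The summed CPM of all collagens gave a log2 ratio of 0.24, where summed TPM gave -0.02.

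Fibrillar collagens, which form the cross-banded fibrils of cartilage and connective tissue, had a summed level of 9.68, 7.80 and 7.45 TPM in MZsmad4a, against 5.72, 5.73 and 6.08 TPM in WT, a log2 ratio of 0.51 without overlap. COL11A1 (ENSDARG00000026165) was the most abundant of them, with 4.38, 3.11 and 3.39 TPM against 2.29, 2.62 and 3.06 TPM and a log2 fold change of 0.58 (standard error 0.21, edgeR adjusted p = 0.211). Without COL11A1 the summed ratio was 0.56. The COL2A1 gene ENSDARG00000011407, whose human counterpart encodes the main collagen of cartilage, had 0.80, 0.82 and 1.18 TPM in MZsmad4a and 0.78, 0.17 and 0.36 TPM in WT. Of the 10 fibrillar collagens tested, 8 had a positive log2 fold change, as did 7705 of all 15720 genes, and 4 had an unadjusted p under 0.05, all 4 higher in MZsmad4a, where 8.68% of all genes were. The third in level, col24a1, had 3 counts in each MZsmad4a library and 0 to 2 counts in WT, and was not tested.

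Among the collagens that decorate fibrils, col16a1 had 3.98, 2.77 and 2.91 TPM in MZsmad4a, against 1.44, 1.36 and 0.28 TPM in WT, a log2 fold change of 1.48 (standard error 0.49, edgeR adjusted p = 0.174). col9a2 and col19a1 (ENSDARG00000076163) also lay above WT in all 3 libraries of MZsmad4a in CPM, with log2 fold changes of 1.14 and 1.18 on 5 to 23 counts per library. The other col19a1 gene (ENSDARG00000096073) overlapped in CPM and was not tested, and col9a3 overlapped with a log2 fold change of 0.38. col14a1b overlapped, with 2.07 ± 0.728 TPM in MZsmad4a and 1.67 ± 0.703 TPM in WT (SD, n = 3 each).

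The network-forming collagens held both extremes. col4a1 (ENSDARG00000055009), a chain of the collagen IV sheet of basement membranes, had the smallest p of all members and a very low level: 23, 39 and 23 counts in MZsmad4a, against 2, 5 and 1 in WT. This was 1.33, 2.15 and 1.21 CPM against 0.189, 0.239 and 0.0546 CPM, so that 2 of the 3 WT libraries were at or under the level of 3 counts. No WT library reached the filter minimum of 0.545 CPM, so that the gene entered the test only through MZsmad4a and had to differ. The fitted log2 fold change was 3.23 (standard error 0.55, edgeR adjusted p = 0.0226). Leaving out MZsmad4a replicate 1 gave an adjusted p of 0.0448, leaving out any other library gave 0.0534 to 0.0894, and DESeq2 gave 0.00124.

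Its partner col4a2, with which col4a1 forms the same trimer in vertebrates, was more abundant and did not go along: it had 1.40, 2.27 and 1.73 TPM in MZsmad4a and 1.10, 1.91 and 3.42 TPM in WT, a log2 fold change of -0.10 (standard error 0.35, edgeR adjusted p = 0.921). col4a4 (ENSDARG00000002831), a chain of another collagen IV trimer, had 3, 10 and 1 counts in MZsmad4a, against 20, 31 and 32 in WT, which was 0.173, 0.552 and 0.0526 CPM against 1.89, 1.48 and 1.75 CPM. The filter minimum applies to CPM before TMM scaling, and no MZsmad4a library reached it on that scale. col4a4 thus entered the test only through WT. Its fitted log2 fold change was -2.68 (standard error 0.62, edgeR adjusted p = 0.0669), and DESeq2 gave an adjusted p of 0.00829. col4a5 varied widely among the mutant libraries, from 0.81 to 3.79 TPM, and its log2 fold change of 0.46 was -0.22 without MZsmad4a replicate 1.

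col8a1a (ENSDARG00000077403), a short-chain network collagen, had 0.32, 0.36 and 0.95 TPM in MZsmad4a, against 2.46, 3.35 and 1.76 TPM in WT. Every mutant library was below every WT library, and the log2 fold change was -2.09 (standard error 0.49, edgeR adjusted p = 0.0701, DESeq2 adjusted p = 0.00636). col18a1a, whose product carries heparan sulphate chains in basement membranes, was the most abundant of the group at 4.70 ± 0.676 TPM in MZsmad4a and 4.70 ± 1.36 TPM in WT (SD, n = 3 each).

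Of the anchoring and beaded collagens, col17a1a (ENSDARG00000069415), a transmembrane collagen of the hemidesmosomes of epithelia, had 3.21, 2.17 and 1.39 TPM in MZsmad4a, against 0.81, 0.39 and 0.90 TPM in WT. Its log2 fold change was 1.82 (standard error 0.41, edgeR adjusted p = 0.0610), and DESeq2 gave an adjusted p of 0.00108. The paralogue col17a1b did not show this and overlapped, with a log2 fold change of -0.22 (standard error 0.54). col28a1a had 0.981, 2.58 and 2.63 CPM in MZsmad4a and 0.875, 0.448 and 0.681 CPM in WT, a log2 fold change of 1.72 (standard error 0.49, edgeR adjusted p = 0.117). In TPM its genotypes overlapped, at 0.60, 2.77 and 1.94 in MZsmad4a and 1.26, 0.43 and 0.65 in WT. In col6a4a a mutant library stood apart: MZsmad4a replicate 1 had 33 counts where replicates 2 and 3 had 298 and 383, against 118, 182 and 169 in WT.

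**Figure D4:**
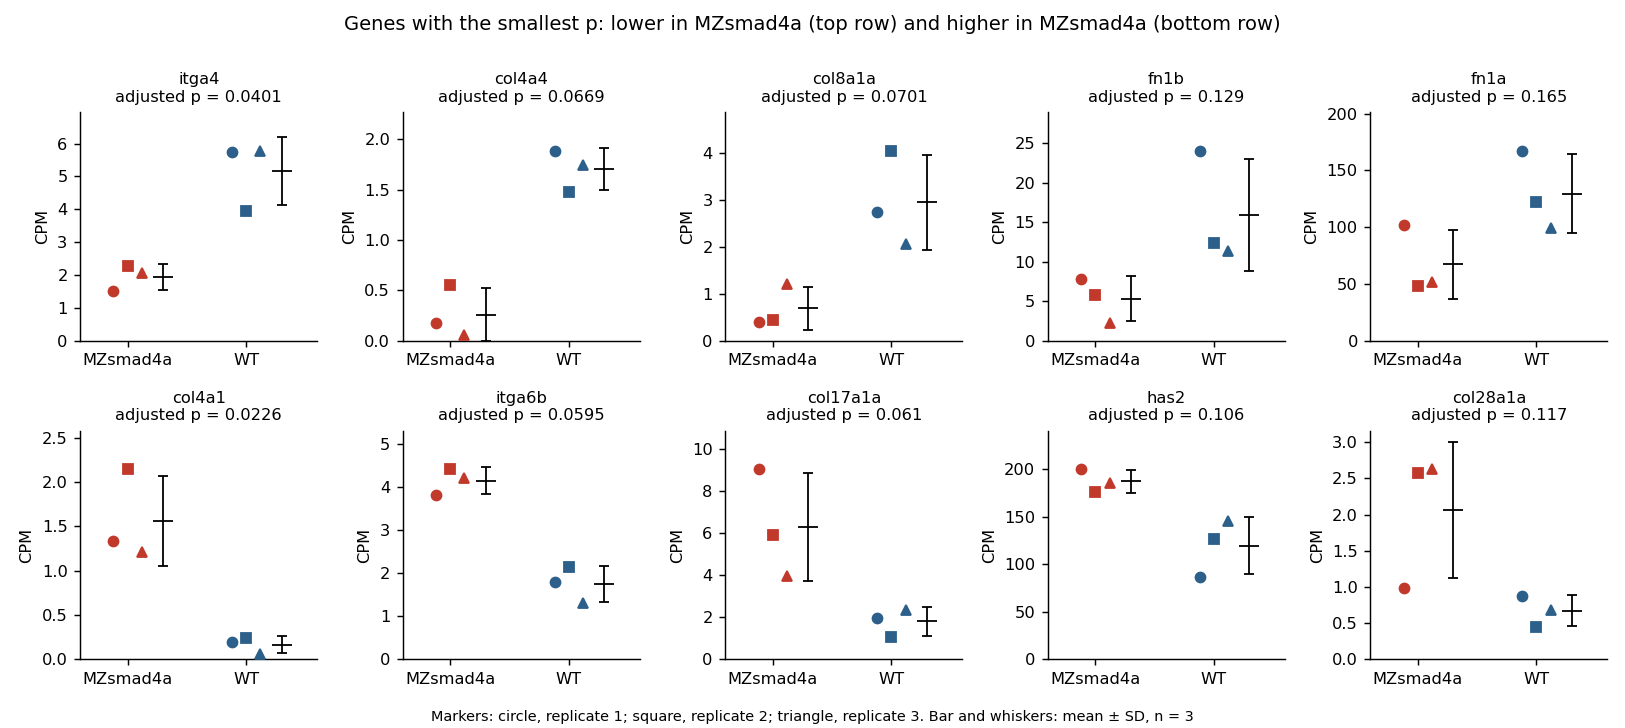
CPM, with axes from 0, of the 5 members with the smallest p among those lower in MZsmad4a (top row) and of the 5 among those higher (bottom row), in the 3 MZsmad4a libraries (red, left) and the 3 WT libraries (blue, right), with mean and SD (n = 3) in black. The genotypes overlap only for fn1a, where MZsmad4a replicate 1 at 102.2 CPM is above WT replicate 3 at 99.1 CPM, and the adjusted p values run from 0.0226 for col4a1 to 0.165 for fn1a. The genes were chosen by their p in these libraries, a choice that favours genes without overlap. col4a1 and col4a4 passed the filter on low counts only through the genotype in which they were higher.

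Among the integrins a few subunits dominated. The alpha subunit genes itga5 and itgav made up 81.7, 82.5 and 84.0% of the summed alpha TPM in MZsmad4a, against 91.4, 89.4 and 88.5% in WT. itga5 (ENSDARG00000006353) encodes the alpha subunit of the main fibronectin receptor and had 77.8, 74.1 and 92.7 TPM in MZsmad4a, against 104.3, 102.7 and 98.2 TPM in WT. Its CPM values overlapped, and the log2 fold change was -0.20 (standard error 0.11, 95% confidence interval -0.44 to 0.05, edgeR adjusted p = 0.391). itgav (ENSDARG00000006314), whose subunit also binds fibronectin and other ligands that carry the RGD motif, had 46.0, 47.9 and 42.0 TPM in MZsmad4a and 49.6, 34.6 and 43.5 TPM in WT, a log2 fold change of 0.21 (95% confidence interval -0.06 to 0.49).

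The alpha subunit itga4 (ENSDARG00000103056) binds fibronectin and vascular adhesion molecules in mammals and was the only member below an adjusted p of 0.05 among those lower in MZsmad4a. It had 0.76, 1.19 and 1.03 TPM in MZsmad4a, against 3.34, 2.11 and 3.15 TPM in WT. The lowest WT library was thus above the highest mutant library, and the log2 fold change was -1.40 (standard error 0.28, edgeR adjusted p = 0.0401, DESeq2 adjusted p = 0.0021). Leaving out a library gave log2 fold changes between -1.57 and -1.25, and adjusted p values between 0.0631 and 0.113.

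The laminin-binding subunit itga6b (ENSDARG00000069946) had 3.81, 4.42 and 4.21 CPM in MZsmad4a, against 1.79, 2.15 and 1.31 CPM in WT, a log2 fold change of 1.24 (standard error 0.28, edgeR adjusted p = 0.0595). The gene listed as ITGA6 did not show this, with a log2 fold change of -0.36 (standard error 0.49). itga1, a collagen-binding subunit in mammals, had 85, 43 and 36 counts in MZsmad4a and 4, 26 and 24 in WT (log2 fold change 1.58, edgeR adjusted p = 0.167). itga2.3 had 16.4, 11.8 and 14.3 TPM in MZsmad4a and 0, 5.87 and 6.68 TPM in WT, and it was WT replicate 1 that had no count. Without that library its log2 fold change was 1.24 (edgeR adjusted p = 0.0757).

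The beta subunits were led by ITGB1 (ENSDARG00000104484), the common partner of most matrix-binding alpha subunits and the most abundant gene of all 114. It had 250.3, 265.9 and 300.0 TPM in MZsmad4a, against 352.6, 332.0 and 308.7 TPM in WT. In CPM the values were 209.5, 215.1 and 251.9 in MZsmad4a and 259.5, 265.6 and 239.7 in WT, which overlapped, and the log2 fold change was -0.18 (95% confidence interval -0.40 to 0.04, edgeR adjusted p = 0.398). It held 90.4 to 92.1% of the TPM of the 3 genes listed as ITGB1. In many libraries their expected counts were not whole numbers, as happens when RSEM divides reads among similar sequences, and the split between these paralogues is therefore uncertain.

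itgb5, which pairs with the itgav product, had 61.6, 56.8 and 49.9 TPM in MZsmad4a and 70.1, 58.3 and 57.5 TPM in WT, a log2 fold change of -0.14 (95% confidence interval -0.46 to 0.18). itgb1b.2 was rare, with 0.23, 0.59 and 0.24 TPM against 0.67, 0.86 and 1.10 TPM, a log2 fold change of -1.25 (standard error 0.48, edgeR adjusted p = 0.232). The summed TPM of the beta subunits was 340.5, 355.3 and 380.2 in MZsmad4a, against 458.2, 425.5 and 397.5 in WT, a log2 ratio of -0.25, and the summed alpha TPM of 151.6, 148.0 and 160.4 overlapped with the 168.5, 153.7 and 160.1 TPM of WT. The median gene had -0.11 on the same TPM scale.

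FBN3, the fibrillin that was expressed, had 4.54, 2.98 and 3.26 TPM in MZsmad4a and 6.34, 4.01 and 3.71 TPM in WT, which overlapped (log2 fold change -0.25, edgeR adjusted p = 0.677), and FBN2 was not tested. Of the genes that only share the integrin prefix, itgb3bp, which encodes a centromere protein in humans, had 1.90, 1.87 and 1.85 TPM in MZsmad4a, against 3.45, 3.24 and 4.76 TPM in WT, on 13 to 32 counts per library (log2 fold change -0.94, edgeR adjusted p = 0.204). itgb1bp1, whose human product binds the tail of the beta-1 integrin, and itgbl1, a secreted protein with integrin-like repeats, overlapped.

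The matrix genes outside these families were read through a list of 226 genes for other matrix proteins, collagen processing, hyaluronan use, matrix proteases and their inhibitors, and integrin adaptors and other receptors. Of the 135 tested, 1 rose and 0 fell in MZsmad4a at an adjusted p under 0.01, where 0.712% of all tested genes were called. At an unadjusted p under 0.05 there were 11 higher and 16 lower (20.0% of the 135, near the 17.5% of all tested genes). Of the 11, adamts5, adamts9 and emilin1a passed the filter on low counts only through MZsmad4a. Of the 16, GPC1, cemip, hyal2a, emilin3a and efemp2a passed it only through WT, so that the filter fixed the direction of all of these. DESeq2 called 1 higher and 5 lower, where it called 3.71% of its genes in all. The gene called higher by edgeR at an adjusted p under 0.01 was adamts1 (ENSDARG00000103519), a secreted metalloprotease known in mammals for cleaving the proteoglycans versican and aggrecan. It had 7.91, 8.01 and 9.20 CPM in MZsmad4a, against 0.755, 0.859 and 0.819 CPM in WT, with a log2 fold change of 3.35 (standard error 0.23, edgeR adjusted p = 0.000683). The mutant libraries held 137, 145 and 175 counts and the WT libraries 8, 18 and 15 counts.

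At an adjusted p under 0.05 there were 5 more of these genes, named here after their values were seen. ugdh, which makes the UDP-glucuronic acid that hyaluronan synthases use, had 52.6, 53.1 and 56.8 CPM in MZsmad4a, against 82.7, 89.1 and 84.0 CPM in WT (log2 fold change -0.65, standard error 0.10, edgeR adjusted p = 0.0125). It thus lay below WT in every mutant library while has2 lay above it. hmcn2 (ENSDARG00000079327), a hemicentin, had 6.84, 3.69 and 2.50 CPM in MZsmad4a and 22.0, 22.5 and 16.0 CPM in WT (log2 fold change -2.22, edgeR adjusted p = 0.0182).

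fbln2, a fibulin, had 0.173, 0.497 and 0.578 CPM in MZsmad4a and 4.90, 2.82 and 1.91 CPM in WT (log2 fold change -2.89, edgeR adjusted p = 0.0286). parvaa, an adaptor that links integrins to actin, had 46.5, 46.2 and 52.8 CPM in MZsmad4a and 72.2, 70.2 and 65.1 CPM in WT (log2 fold change -0.51, edgeR adjusted p = 0.0496). adamts5, another protease of the adamts1 family, had 16, 16 and 11 counts in MZsmad4a and 0, 1 and 1 counts in WT (edgeR adjusted p = 0.0184). WT was under the least level these libraries can show, so that no fold is given, and the gene entered the test only through MZsmad4a, where it was high.

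**Figure D5:**
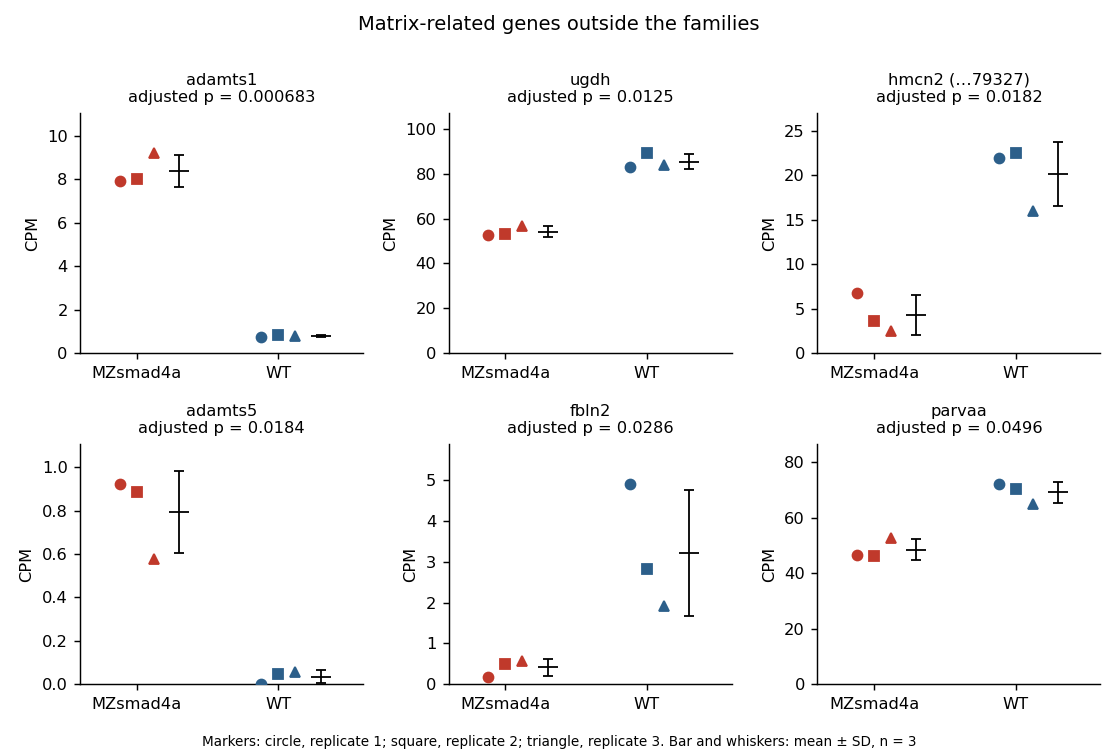
CPM, with axes from 0, of the 6 matrix-related genes outside the families with an adjusted p under 0.05, in the 3 MZsmad4a libraries (red, left) and the 3 WT libraries (blue, right), with mean and SD (n = 3) in black. adamts1, at 7.91 to 9.20 CPM against 0.755 to 0.859 CPM, is the gene with an adjusted p under 0.01, and in all 6 panels the genotypes do not overlap. The genes were chosen by their p in these libraries, a choice that favours genes without overlap. adamts5 passed the filter on low counts only through MZsmad4a.

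Of the 15 genes of hyaluronan use, 12 were tested, and 11 of these had a negative log2 fold change, with a median of -0.31. Over all 15720 tested genes, 8015 were negative. Among the 11, cemip and hyal2a passed the filter on low counts only through WT, so that their sign was fixed by the filter. The receptor gene cd44a had 92.6 TPM on average in MZsmad4a and 107.9 TPM in WT and a log2 fold change of -0.10. Among the 16 tested proteases and inhibitors the median was -0.26, and 10 had a negative sign. The filter fixed the sign of adamts14, which passed it only through WT, and of adamts5 and adamts9, which passed it only through MZsmad4a. The medians were 0.05 for the 29 tested genes of collagen processing, 0.07 for the 40 integrin adaptors and other receptors and -0.08 for the 38 other matrix proteins, none of which was called.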

How the data were processed

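Poly(A) RNA libraries of 3 MZsmad4a and 3 WT pools were sequenced as paired-end reads. According to the study's methods and the labels, the authors used bcl2fastq 2.20.0, cutadapt, STAR and RSEM on GRCz11 with Ensembl release 95. The deposited expected counts are RSEM estimates per gene that are not normalized, and between 91.0 and 92.6% of them were whole numbers. The deposited TPM values are divided by transcript length (also deposited, in bases) and sum to an equal total in every library.

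After rounding, expected counts of the 15720 genes that passed filterByExpr were scaled by TMM and compared between genotypes, without covariates, by the quasi-likelihood test of edgeR 4.0.16 (R 4.3.3), with Benjamini-Hochberg adjustment and a threshold of 0.01. Standard errors were derived from the fold change and F. DESeq2 1.42.0 and limma 3.58.1 served as alternatives, and Python 3.11.15, numpy 2.4.6, pandas 2.3.3, scipy 1.17.1 and matplotlib 3.10.9 for summaries. The fit was tested on simulated counts with 200 changed genes, drawn from genes above a set mean count, where 1 unchanged gene was called. No pair of libraries of a genotype agreed within sampling noise (chi-square per gene between 14.9 and 28.5).

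The genes named are the 5 members with the smallest p in each direction, members with an adjusted p under 0.05, the 3 most abundant of each family and related genes called. Others were named after their values were seen. The members, the related list (232 symbols, 226 matched identifiers) and the markers were chosen with earlier results of these data known. Symbols came from a gene table (26433 of 32266 identifiers) and, for 11 members, from the study's own table. The limit of 3 counts covers counting error only, since reads without molecular identifiers are not independent molecules. Replicate numbers are those of the labels, which do not say that a number marks a shared clutch. Forerunner cell, pluripotent blastoderm and germ cell markers were also read, with 0 of 2, 0 of 4 and 0 of 5 called. Sequences and coordinates are not used here.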

Additional observations from a re-analysis of the deposited data

How the results depend on the processing

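With 3 libraries of each genotype, the estimates of spread rest on few samples. DESeq2 called 4 members lower and 2 higher at an adjusted p under 0.01, edgeR without a filter on low counts called 0 lower and 1 higher (col4a1, adjusted p = 0.00904), and a threshold of 0.05 gave 1 lower and 1 higher; the other alternatives, leaving out each library included, called 0. Over all genes the calls were 77 lower and 35 higher, against 343 and 315 with DESeq2, 167 and 116 without a filter, 43 and 21 with at least 10 counts in every library, 105 and 24 by library size alone, 94 and 24 or 90 and 25 with limma on log2(TPM + 0.1) or log2(TPM + 1), and 16 to 47 lower and 8 to 29 higher when a library was left out. In the related genes, DESeq2 called 5 lower, the unfiltered fit 2, library size alone and both limma fits 1 (ugdh) and the threshold of 0.05 gave 4 lower and 2 higher; leaving out each library gave 0 to 1 lower (hmcn2 without MZsmad4a replicate 1). adamts1 could not be fitted with at least 10 counts in every library, which left 0 higher, and was called in all other fits. A pseudocount of 0.1 turned col6a4a to -0.20, and LAMB1 (ENSDARG00000101209) was -0.01 by library size alone and -0.05 in both limma fits. Leaving out a library turned the sign of genes near 0, with log2 fold changes that ranged from -0.04 to 0.41 for col18a1a, -0.22 to 0.90 for col4a5, -0.82 to 0.10 for has3, -0.10 to 0.08 for ITGB1 (ENSDARG00000071863), -0.24 to 0.69 for col14a1b, -0.08 to 0.02 for COL12A1, -0.07 to 0.93 for col6a4a, -0.14 to 0.26 for LAMB1 (ENSDARG00000101209) and -0.37 to 0.23 for col4a2. The summed collagen ratio was 0.24 in CPM and 0.26 without COL12A1, and that of the fibril-associated collagens was 0.11 and 0.50. Without its leading gene the ratio was 0.24 for fibrillins, -1.0 for hyaluronan synthases, 0.28 for integrin alpha, -0.53 for the integrin-binding proteins, -1.17 for laminin alpha and -0.78 for laminin gamma. The fibrillin ratio then rested on FBN2 alone, with 0, 6 and 0 counts in MZsmad4a and 0, 1 and 4 in WT. The hyaluronan synthase ratio rested on has3 alone, with 6 to 35 counts per library. Beyond the genes and libraries each alternative leaves out, the cause of these moves was not tested.

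The deviations of same-numbered libraries had correlations of 0.108, -0.032 and 0.14, so the numbers were not taken to pair them in the main fit. However, principal component 2 (17.8% of variance) ordered the libraries by number in both genotypes. Its scores were 32.3, -5.6 and -29.4 for MZsmad4a replicates 1 to 3, against 33.4, -1.7 and -29.1 in WT, and thus close by number. The study speaks of 3 batches of embryos without saying whether a batch held both genotypes. Whether a number marks a shared batch was not tested. Not every library correlated best with its own number, since MZsmad4a replicate 2 did so with WT replicate 1 (0.082). With the replicate number as a block, edgeR called 22 genes lower and 7 higher, 0 members, and adamts1 at an adjusted p of 0.00876. At an adjusted p under 0.05 the block added fn1a (0.0373) and fn1b (0.0489), kept col4a1 (0.0429), ugdh (0.0489) and hmcn2 (ENSDARG00000079327, 0.0218), and lost itga4 (0.10), parvaa (0.117), fbln2 (0.0905) and adamts5 (0.0625).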
